A study of Mus musculus with 20 samples.

Results

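Serotonin acts on the brain through a family of receptors, and the 10 genes described here are Htr1a, Htr1b, Htr1d, Htr2a, Htr2c, Htr3a, Htr4, Htr5a, Htr6 and Htr7. They were chosen by name as mouse serotonin receptor genes and found by their Ensembl identifiers, 10 of 53801 genes in the tables and 10 of 22181 genes tested. Total RNA of mouse hypothalamus, depleted of ribosomal RNA, had been sequenced in 20 libraries that form 4 groups of 5. KO_night and KO_day are mice that lack both Magel2 and Ndn (necdin), a model of Prader-Willi syndrome, taken 18 h and 6 h after light on. WT_night and WT_day are C57BL/6J mice taken at the same hours. All were kept in light and dark phases of equal length with free food and water, and the labels used here give no age and do not say whether a library is 1 animal or a pool, so each p measures only the spread between these samples.

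As background, serotonin comes from neurons of the brainstem raphe, whose fibres reach the hypothalamus and act there on feeding, body temperature, sleep and the release of hormones. The products of Htr1a, Htr1b, Htr1d and Htr5a couple to inhibitory G proteins and lower cyclic AMP. Those of Htr2a and Htr2c couple to Gq and phospholipase C, those of Htr4, Htr6 and Htr7 raise cyclic AMP through Gs, and Htr3a encodes a subunit of a serotonin-gated cation channel. The Htr2c receptor is known for curbing food intake through Pomc neurons, and the Htr1a and Htr1b receptors also act as autoreceptors on serotonin neurons.

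Library totals ran from 32066289 to 48697647 counts. Levels are CPM, counts scaled to a common library size with TMM factors, means are given with their SD, and a gene rose or fell where edgeR's quasi-likelihood test gave a Benjamini-Hochberg adjusted p under 0.05 over all 22181 genes. Both deleted genes were nearly absent in KO: Ndn stood at 0.607 ± 0.267 in KO_night and 0.527 ± 0.209 in KO_day, against 282 ± 41.5 in WT_night and 216 ± 104 in WT_day. The library labelled WT_day 3 does not match its genotype label, with Ndn at 31.0 and Magel2 at 2.15. In 6 libraries, KO_night 1, 2 and 3, KO_day 1 and 2 and WT_night 1, the time field contradicts the title, and the title was followed. WT_night 1, 2 and 3 stood apart from the other WT libraries along the first principal component of all genes. Some results below are therefore also given without these libraries. Without WT_night 1, 2 and 3 only WT_night 4 and 5 remain of that group. A call lost there cannot be told apart from one lost through having fewer libraries. Of the 12 hypothalamic marker genes looked at, all were tested, and their summed level ran from 1026 to 1242 CPM in KO_night, 979 to 1184 in KO_day, 754 to 994 in WT_night and 930 to 1095 in WT_day. Averaged over both times Oxt (0.48, adjusted p = 8.3e-04), Avp (0.33, 0.0320) and Otp (0.26, 0.0360) rose in KO, and 9 did not pass. At night Oxt (0.76, 2.3e-04) and Avp (0.45, 0.0182) rose, and 10 did not pass. In both comparisons 9 of the 12 changes were positive and 3 negative. Over all genes 1.32% were called for the averaged effect and 11.9% at night, and 49.5% and 51.0% of changes were positive. Without WT_night 1, 2 and 3 the averaged adjusted p was 0.0496 for Oxt, 0.316 for Avp and 0.304 for Otp. At night it was then 0.152 for Oxt and 0.551 for Avp. In bulk tissue, fewer cells of a type and less RNA per cell cannot be told apart.

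All 10 receptor genes were detected in every library. Htr2c held 53.4% of their summed CPM, with 145 ± 10.6 over the 20 libraries. Next came Htr7 at 33.5 ± 1.75, Htr4 at 27.7 ± 2.97 and Htr2a at 22.3 ± 1.58. Htr1b averaged 15.4 ± 1.86, Htr1a 13.3 ± 1.35 and Htr5a 8.95 ± 0.744. Htr1d, Htr3a and Htr6 were at the low end with 1.90 ± 0.267, 1.79 ± 0.333 and 1.30 ± 0.220. Those 3 genes had 38 to 99 counts per library, so counting error alone gave them a coefficient of variation of 11.8% to 14.2%, against 1.34% for Htr2c. The summed level of the 10 genes had a median of 260 CPM in KO_night, 269 in KO_day, 276 in WT_night and 272 in WT_day, and the ranges of all 4 groups overlapped.

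**Figure D1:**
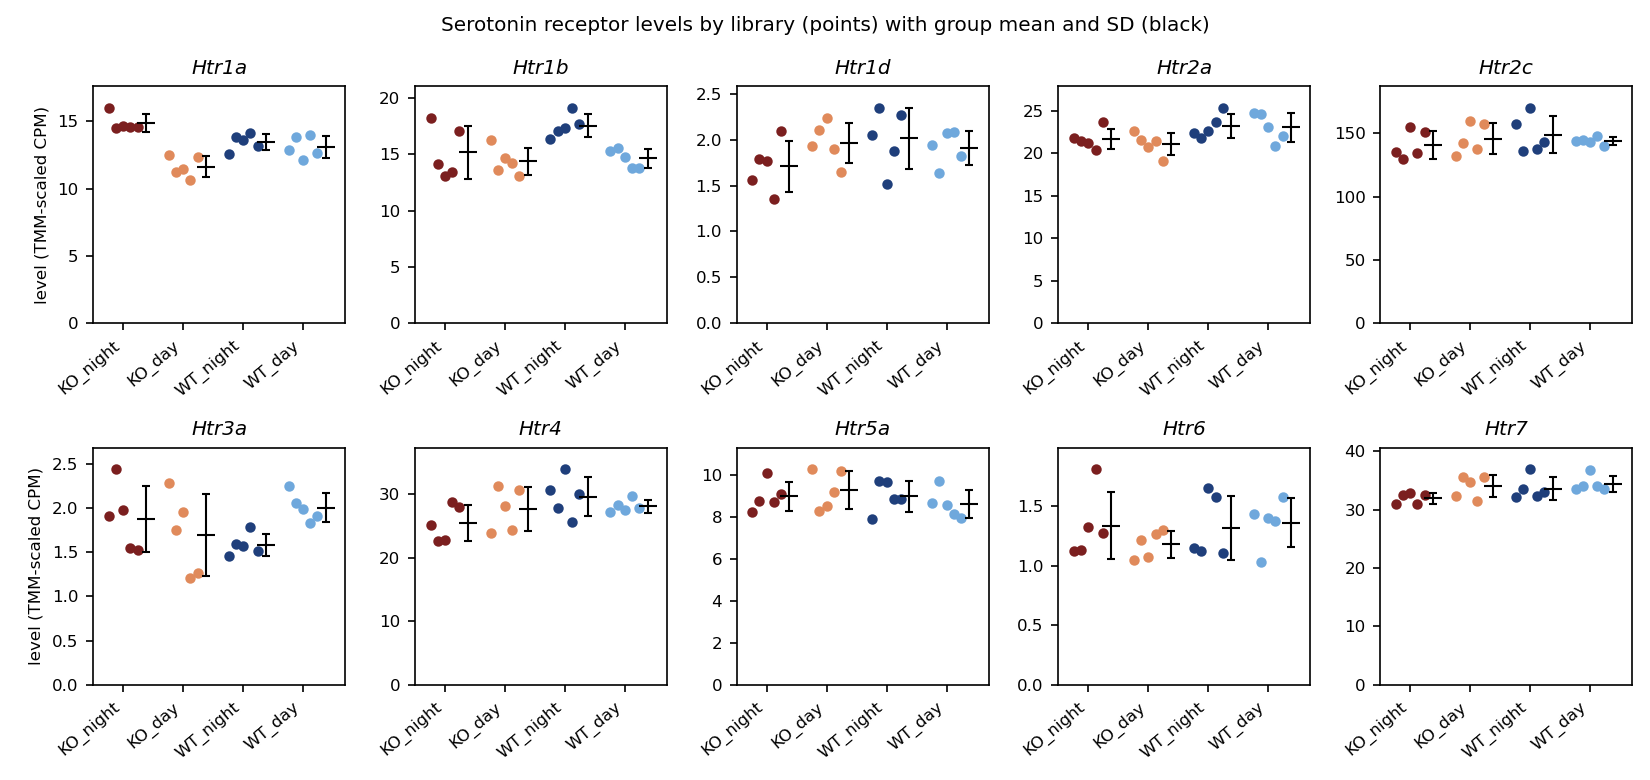
Level of each of the 10 receptor genes (TMM-scaled CPM, axes from 0) in the 20 libraries, with points for libraries and black marks for the mean and SD of each group (n = 5). For Htr1a the 5 KO_night points, 14.5 to 16, lie above all 5 KO_day points, 10.6 to 12.5, while for most other genes the groups overlap.

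Levels of different genes can be compared only per length, and the genes differ widely in span. Htr1a is 1 exon of 4484 bp on chromosome 13 (105443639 to 105448122, plus strand, GRCm38), whereas Htr2c covers 234765 bp of chromosome X (146962513 to 147197277, plus strand). Whether reads in introns were counted is not given in the sources used here. Of 456 protein-coding genes nested in another on their own strand, 98.2% had no count in any library, against 13.5% of 11784 that overlap no gene. Levels are therefore given per kilobase of gene span first and per kilobase of merged exons second.

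Per kilobase of span the order of mean CPM per kb was Htr1a (2.96), Htr1b (2.79), Htr5a (0.692), Htr2c (0.617), Htr7 (0.339), Htr2a (0.324), Htr4 (0.161), Htr3a (0.151), Htr1d (0.0910) and Htr6 (0.0898). Between neighbours the ranges over 20 libraries were separate in 3 places: between Htr1b and Htr5a, between Htr2c and Htr7, and between Htr2a and Htr4. The other neighbours overlapped. Per kilobase of exon the order was Htr2c (15.5), Htr7 (9.85), Htr4 (5.65), Htr2a (3.97), Htr1b (3.27), Htr1a (2.96), Htr5a (1.67), Htr3a (0.859), Htr1d (0.594) and Htr6 (0.555). Htr2c, Htr7 and Htr4 then stood above the rest, each separate from its neighbours, and the place of Htr1a and Htr1b against Htr2c turned round with the length used. Htr3a, Htr1d and Htr6 were the lowest 3 on the exon scale and among the lowest 4 on the span scale.

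**Figure D2:**
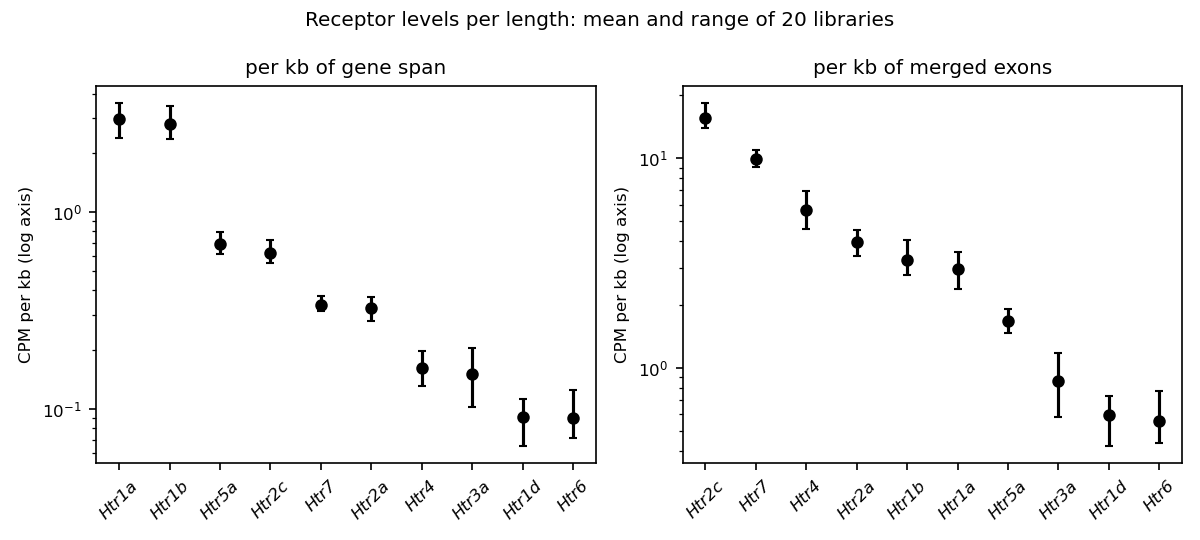
Mean level of each receptor gene over 20 libraries with the lowest and highest library as bars (CPM per kb, log axis), per kb of gene span on the left and per kb of merged exons on the right. Htr1a leads on the left at 2.96 and Htr2c on the right at 15.5.

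Among the inhibitory receptors, Htr1a was the 1 gene of the 10 that passed a test. In KO_night libraries 1 to 5 Htr1a had 16, 14.5, 14.6, 14.5 and 14.6 CPM, and in KO_day libraries 1 to 5 it had 12.5, 11.3, 11.4, 10.6 and 12.4. Every KO_night library lay above every KO_day library, a separation that 2.51% of all tested genes had in either direction. In KO, Htr1a rose at night by 0.35 ± 0.0570 on the log2 scale (1.28-fold, standard error from the fit, adjusted p = 0.0220). It was 1 of 16 genes called in that comparison, 0.0721% of those tested, and 1 of 12 that rose, 0.0541%.

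In WT the 2 times overlapped. Htr1a had 12.6, 13.8, 13.6, 14.1 and 13.2 CPM in WT_night libraries 1 to 5, against 12.9, 13.8, 12.1, 14 and 12.7 in WT_day libraries 1 to 5. The log2 change was 0.039 ± 0.0571 (adjusted p = 0.775). Set against WT, the KO mean was higher at night, 14.9 ± 0.655 in KO_night and 13.5 ± 0.601 in WT_night, and lower by day, 11.6 ± 0.780 in KO_day and 13.1 ± 0.803 in WT_day. At night the 2 groups did not overlap, as for 5.07% of genes, but neither difference passed: the log2 change was 0.14 ± 0.0569 for KO_night against WT_night (adjusted p = 0.0910) and -0.17 ± 0.0572 for KO_day against WT_day (adjusted p = 0.284). Averaged over both times the 2 genotypes differed by -0.013 ± 0.0403 (adjusted p = 0.894).

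The difference between the day-night changes of the 2 genotypes was tested by the interaction term. For Htr1a it was 0.31 ± 0.0806 with an adjusted p of 0.0639, above the threshold, so the change in KO is not shown to differ from that in WT. The interaction passed for Htr1a with DESeq2 (adjusted p = 0.0211) and, in edgeR, without WT_night 4 (0.0343), KO_day 1 (0.0425) or KO_night 4 (0.0341). By edgeR none of the 22181 genes passed that test (0%), 4910 genes had an unadjusted p under 0.05 (22.1%), and DESeq2 called 1223.

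The night rise of Htr1a in KO was also called by DESeq2 (0.35, adjusted p = 9.3e-05) and in 15 of the 20 fits with 1 library left out. It rests on the titles, and its call on single libraries. With time taken from the time field, which moves 6 libraries, the change was -0.011 (adjusted p = 0.984). With the 14 libraries whose time labels agree it was 0.34, close to the value over all 20, with an adjusted p of 0.124. Of KO these include only KO_night 4 and 5 and KO_day 3, 4 and 5. The change stayed between 0.32 and 0.37 without any 1 library, while the adjusted p was 0.137 without KO_day 2, 0.101 without KO_day 3, 0.0797 without KO_day 5, 0.0527 without KO_night 1 and 0.0694 without KO_night 2. In the same fits the number of genes called in this comparison ran from 0, without KO_day 2, 3 or 5 or KO_night 2, to 328 without KO_day 1. With the trend over gene length removed it was 0.27 (adjusted p = 0.0570).

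Markers of other brain regions, among them cortex, hippocampus and raphe, where Htr1a is also expressed, were read beside it. The summed level of 9 cortex and hippocampus markers was 74.6 to 80.3 CPM in KO_night and 70.1 to 77.8 in KO_day, so the ranges overlapped. Of the 9 genes 7 had a positive and 2 a negative change in KO_night against KO_day, with a median of 0.13, beside 0.0016 for all genes. None passed by edgeR, 4 had an unadjusted p under 0.05, and DESeq2 called 1 and gave no adjusted p to 5. In the direction of Htr1a, the log2 change was 0.93 for Neurod6 (adjusted p = 0.123), 0.46 for Tbr1 (0.208) and 0.39 for Bhlhe22 (0.102). Neurod6 and Tbr1 were picked after their values were seen. Of 6 striatum markers 4 had a positive and 2 a negative change (median 0.28), 3 had an unadjusted p under 0.05 and DESeq2 called 1. Of 5 thalamus markers 2 had a positive and 3 a negative change (median -0.11), 2 had an unadjusted p under 0.05 and DESeq2 called 0. Markers of raphe serotonin neurons summed to 0.416 to 0.949 CPM over 4 genes in KO_night and 0.454 to 0.800 in KO_day, with Fev and Gata3 under a mean of 3 counts. Of 88 marker genes tested, none passed in KO_night against KO_day by edgeR, 19 had an unadjusted p under 0.05 and DESeq2 called 4. Over all genes 17.7% had an unadjusted p under 0.05 in this comparison, and DESeq2 called 581 of 14874. The part of these markers in the Htr1a result was not tested.

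**Figure D3:**
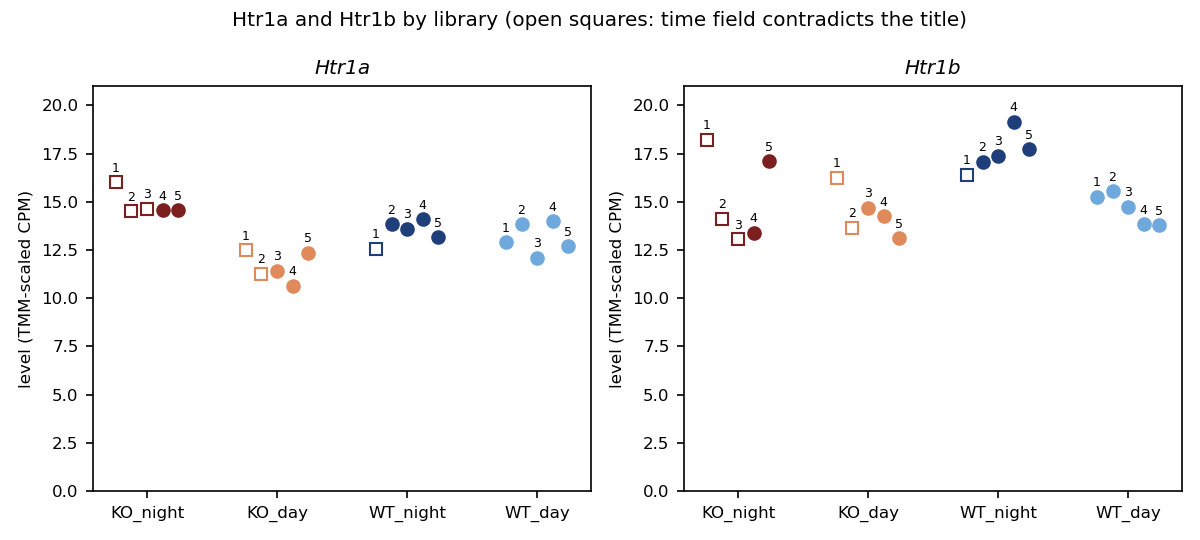
Htr1a and Htr1b level (TMM-scaled CPM, axes from 0) in each library, numbered within its group. Open squares are the 6 libraries whose time field contradicts the title. The 5 KO_night values of Htr1a, 14.5 to 16, lie above the KO_day values, 10.6 to 12.5, and the 5 WT_night values of Htr1b, 16.4 to 19.2, lie above the WT_day values, 13.8 to 15.6.

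The stretch of DNA before Htr1a is shown because this gene alone passed. It runs from 250 bases before to 50 bases after the RefSeq start (GRCm38.p6, plus strand, chr13:105443443-105443742), and the capitals mark its only match to the motifs searched.
Htr1a promoter: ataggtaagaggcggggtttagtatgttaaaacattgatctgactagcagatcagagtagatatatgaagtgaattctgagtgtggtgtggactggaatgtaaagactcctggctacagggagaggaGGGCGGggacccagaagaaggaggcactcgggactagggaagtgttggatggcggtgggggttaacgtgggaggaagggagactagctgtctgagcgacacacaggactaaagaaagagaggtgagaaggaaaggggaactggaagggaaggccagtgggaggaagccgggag
The match is a GC box (GGGCGG) that begins 123 bases before the start. RefSeq windows of 300 bases were found for 8 of the 10 genes, 10 windows in all, and searched on both strands. GC boxes were in windows of Htr1a, Htr1d, Htr2a and Htr6, and in 35.7% of all 32851 windows. The clock-related E-box CACGTG (7.15% of all windows), D-box TTATGTAA (0.938%) and cAMP response element TGACGTCA (1.79%) were in none of the 10, nor was TATAAA (13.6%). The core of the ROR element, AGGTCA, was in windows of Htr6 and Htr2c (16.3% of all). These are matches of letters only.

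Htr1b, the receptor that curbs transmitter release at axon endings, was higher at night in WT, short of the threshold. Its levels were 16.4, 17.1, 17.4, 19.2 and 17.7 CPM in WT_night libraries 1 to 5, against 15.3, 15.6, 14.7, 13.8 and 13.8 in WT_day libraries 1 to 5. The groups did not overlap, as for 5.32% of all genes in that comparison, and the log2 change was 0.26 ± 0.0801 (adjusted p = 0.139). Without WT_day 3 it was 0.27 (adjusted p = 0.225), and without WT_night 1, 2 and 3 it was 0.33 (adjusted p = 0.269). In KO the groups overlapped: Htr1b had 18.2, 14.1, 13.1, 13.4 and 17.1 CPM in KO_night and 16.3, 13.6, 14.7, 14.2 and 13.1 in KO_day, libraries 1 to 5 each. KO_night 1 and 5 stood above the other 3 KO_night libraries.

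For KO_night against WT_night the Htr1b change was -0.21 ± 0.0801 (adjusted p = 0.0862). It passed without KO_night 1 (-0.29, adjusted p = 0.0272) or KO_night 5 (-0.26, adjusted p = 0.0494), and the adjusted p without any 1 library ran up to 0.230. The interaction did not pass (-0.18 ± 0.114, adjusted p = 0.353). D430036J16Rik, an antisense gene, lies over 41.1% of the span of Htr1b (chromosome 9, 81628291 to 81633828, minus strand). Whether reads there were counted for either gene, for both or for neither is not known. The strand setting of the counting is not given in the sources used here. The count of D430036J16Rik was 58.4% to 83.2% of that of Htr1b, and it fell in KO_night against WT_night (-0.29, adjusted p = 0.0216), though not without WT_night 1, 2 and 3 (-0.25, adjusted p = 0.438), nor without WT_night 1 or 3 or KO_night 2 or 3 (adjusted p up to 0.0797). The values of Htr1b are uncertain for that reason.

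The other inhibitory receptors showed smaller or less certain differences. Htr1d, the close relative of Htr1b, had 1.56, 1.79, 1.77, 1.35 and 2.10 CPM in KO_night against 2.05, 2.35, 1.52, 1.87 and 2.27 in WT_night, overlapping groups with a log2 change of -0.24 ± 0.135 (adjusted p = 0.245). By day its mean was 1.97 ± 0.221 in KO_day and 1.91 ± 0.189 in WT_day. Htr5a, whose product also couples to inhibitory G proteins, was the 1 member with a positive change averaged over both times, 0.053 ± 0.0562 (adjusted p = 0.638). Its group means ran from 8.60 ± 0.680 in WT_day to 9.27 ± 0.923 in KO_day.

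Of the Gq-coupled receptors, Htr2a was lower in KO at both times without passing. It averaged 21.7 ± 1.20 CPM in KO_night against 23.2 ± 1.39 in WT_night, and 21.1 ± 1.28 in KO_day against 23.1 ± 1.68 in WT_day. Averaged over both times the log2 change was -0.11 ± 0.0405 (adjusted p = 0.129), the lowest p of the 10 genes in that comparison. Single libraries overlapped: the KO values ran from 19.1 to 23.7 and the WT values from 20.8 to 25.4. Without the library labelled WT_day 3 the change was -0.11 (adjusted p = 0.169).

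Htr2c had the highest CPM of the receptor genes, but per kilobase of span its mean was below those of Htr1a, Htr1b and Htr5a. Htr2c did not pass in any comparison. It had 135, 130, 155, 135 and 151 CPM in KO_night and 132, 142, 160, 138 and 157 in KO_day, libraries 1 to 5 each. In WT it had 157, 136, 170, 137 and 143 CPM in WT_night and 144, 144, 143, 148 and 140 in WT_day. The 4 groups overlapped, and WT_day, with an SD of 3.05, spread less than the others, whose SDs were 11.1 to 14.7. The log2 change was -0.029 ± 0.0457 averaged over both times, -0.077 ± 0.0647 at night and 0.018 ± 0.0647 by day, with adjusted p of 0.768, 0.444 and 0.965.

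Htr2c has a known link to the chromosomal region of Prader-Willi syndrome. As background, Snord115 small nucleolar RNAs, which are cut from the long transcript Snhg14, carry a stretch complementary to a coding exon of Htr2c, where sites of adenosine editing lie and alternative splicing occurs. The pair is printed because it ties this receptor to the imprinted region next to the deletion: the Htr2c stretch on chrX:147169689-147169707 (GRCm38, plus strand, in exon 5 or 6 of 2 coding transcripts, with flanks in lower case) and Gm24306, a small nucleolar RNA gene on chr7:59349536-59349614 (minus strand), where capitals mark the 19 paired bases.
Htr2c coding stretch: caataCGTAATCCTATTGAGCATAgccggt
Gm24306: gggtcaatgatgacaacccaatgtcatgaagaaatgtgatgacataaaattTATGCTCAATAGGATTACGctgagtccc
Of 1507 annotated small nucleolar RNA genes, 105 held a stretch of 18 or more bases complementary to this exon, 4 of them of 19. All 105 lay within Snhg14 on chromosome 7, between 59344073 and 59617690, and the longest stretch in the 1299 genes outside Snhg14 was 16 bases.

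The tables hold no information on these small RNAs, and none on editing or splicing of Htr2c. All 105 genes had a summed count of 0 over the 20 libraries, but so had 99.9% of the 679 small nucleolar RNA genes nested in any gene on their strand, against 68.8% of 600 that overlap no gene. Their host Snhg14 (chromosome 7, 59307924 to 59975759) was lower in KO at night, with 862 ± 88.5 CPM in KO_night against 1114 ± 152 in WT_night and 1005 ± 118 in KO_day against 1020 ± 43.6 in WT_day. Snhg14 fell in KO_night against WT_night by 0.37 ± 0.0876 on the log2 scale (adjusted p = 0.0185). The change was -0.21 (adjusted p = 0.497) without WT_night 1, 2 and 3 and -0.10 (adjusted p = 0.256) with the length trend removed, and it did not pass without WT_night 1 or 3 or KO_night 2 or 3 (adjusted p up to 0.0728). With the time field it was -0.17 and with agreeing labels, which keep only KO_night 4 and 5 of that group, -0.20, neither of which passed. Averaged over both times its change was -0.20 (adjusted p = 0.0920). It is a long gene with other genes inside its span, so its count is uncertain.

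Htr3a, the channel subunit, stood lower at night in WT without passing. It had 1.45, 1.59, 1.57, 1.78 and 1.51 CPM in WT_night libraries 1 to 5, against 2.25, 2.05, 1.99, 1.83 and 1.90 in WT_day libraries 1 to 5. The groups did not overlap, as for 5.32% of all genes, and the log2 change was -0.34 ± 0.157 (adjusted p = 0.292). In KO they overlapped, with 1.88 ± 0.374 in KO_night and 1.69 ± 0.459 in KO_day, and the interaction was 0.50 ± 0.221 (adjusted p = 0.185). Without the library labelled WT_day 3 the WT change was -0.34 (adjusted p = 0.411). The antisense gene Gm32335 covers 57.0% of its span and had 75% to 98% of its counts, so Htr3a is uncertain in the same way as Htr1b.

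Among the receptors that raise cyclic AMP, Htr4 had the lowest p at night. It had 25.2, 22.6, 22.8, 28.8 and 28.0 CPM in KO_night libraries 1 to 5, against 30.6, 27.9, 34.0, 25.7 and 30.1 in WT_night libraries 1 to 5. KO_night 4 and 5 lay within the WT_night range and the other 3 lay below it. The log2 change was -0.22 ± 0.0819 (adjusted p = 0.0735). It passed with DESeq2 (adjusted p = 0.0493), without WT_night 4 (-0.28, adjusted p = 0.0213) and without KO_night 4 (-0.27, adjusted p = 0.0300). It was -0.13 (adjusted p = 0.682) without WT_night 1, 2 and 3, and -0.090 (adjusted p = 0.369) with the trend over gene length removed. By day Htr4 averaged 27.7 ± 3.42 in KO_day and 28.1 ± 1.01 in WT_day.

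Htr7, which the suprachiasmatic nucleus expresses, varied little. Its mean was 31.9 ± 0.889 in KO_night against 33.6 ± 1.95 in WT_night, and 34.0 ± 1.89 in KO_day against 34.4 ± 1.41 in WT_day. The largest of its changes, KO_night against KO_day, was -0.090 ± 0.0464 (adjusted p = 0.312). Htr6 was the lowest gene in CPM, with 1.12, 1.14, 1.32, 1.81 and 1.28 in KO_night and 1.15, 1.12, 1.65, 1.58 and 1.11 in WT_night, and its night change was 0.0070 ± 0.160 (adjusted p = 0.982). At that depth its interval is wide: by day the change was -0.20 ± 0.158, with 1.18 ± 0.113 CPM in KO_day and 1.36 ± 0.204 in WT_day (adjusted p = 0.758).

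**Figure D4:**
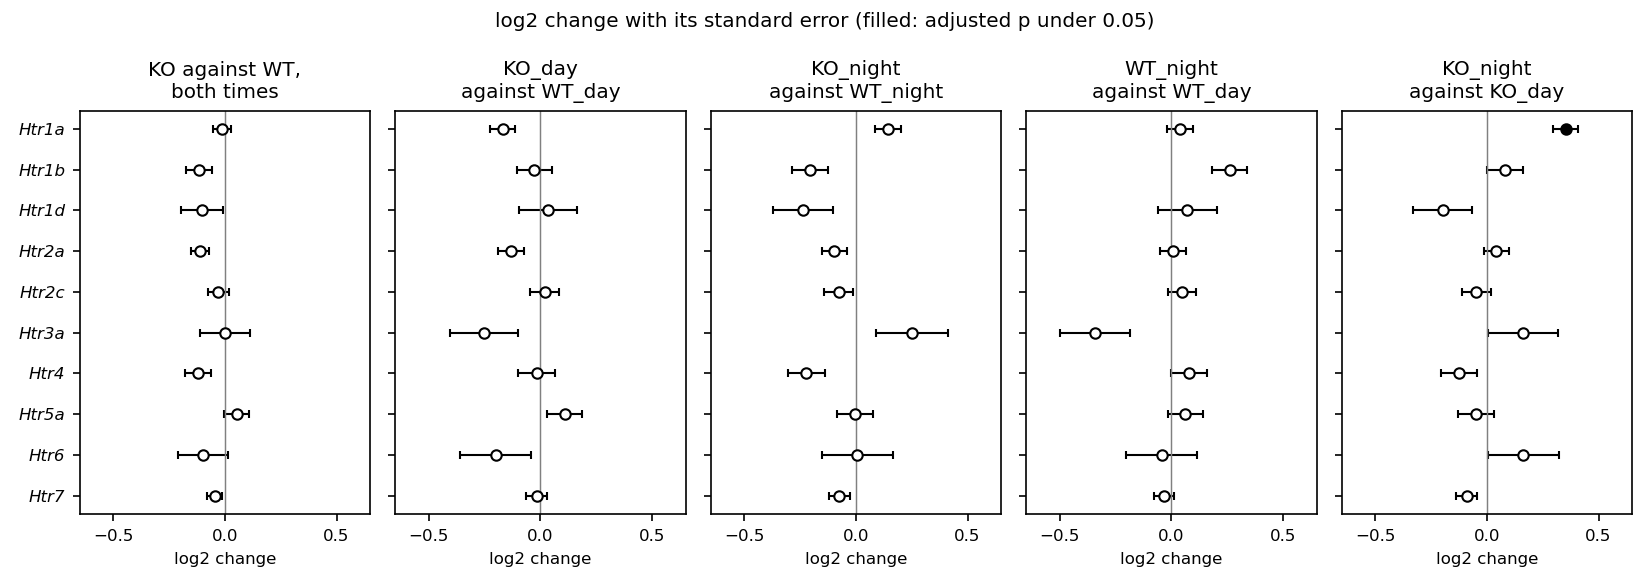
Fitted log2 change of each receptor gene (points, bars are 1 standard error) in 5 comparisons over all 20 libraries, with a filled point where the adjusted p was under 0.05. The 1 filled point is Htr1a in KO_night against KO_day at 0.35.

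Counted over the comparisons, the receptor genes gave few calls, and so did all genes except at night. For KO against WT averaged over both times none of the 10 passed by edgeR or DESeq2, 2 had an unadjusted p under 0.05, and 1.32% of all genes were called. The KO and WT levels of each of the 10 overlapped, as for all but 0.0406% of genes. By day none passed with either tool, 2 had an unadjusted p under 0.05, and 0.113% of all genes were called. The day groups also overlapped for each of the 10, where 2.72% of genes did not overlap. At night none passed by edgeR, 3 had an unadjusted p under 0.05 and DESeq2 called 1. Over all genes edgeR called 11.9% at night, and DESeq2 called 3514 of 18489. The night groups did not overlap for 1 of the 10, Htr1a, where 5.07% of all genes did not overlap. In WT_night against WT_day none passed with either tool and 2 had an unadjusted p under 0.05, against 0.275% of all genes called. These WT groups did not overlap for 2 of the 10, Htr1b and Htr3a, where 5.32% of all genes did not overlap. In KO_night against KO_day 1 of the 10, Htr1a, passed by edgeR and had an unadjusted p under 0.05, against 0.0721% of all genes called. Its KO groups did not overlap, as for 2.51% of all genes. For the interaction none passed by edgeR and 2 had an unadjusted p under 0.05, against 0% of all genes called. Over all genes 19.6% had an unadjusted p under 0.05 for the averaged effect, 9.62% by day and 29.9% at night. For time it was 15.9% in WT and 17.7% in KO, and for the interaction 22.1%.

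Most of the 10 changes in KO against WT were negative, and none of them passed by edgeR. Averaged over both times 9 of the 10 changes were negative with a median of -0.071, where 49.5% of all genes had a positive change and the median was -0.0013. Among the 9 were Htr3a at -5.2e-04 and Htr1a at -0.013. At night 7 were negative and 3 positive, with a median of -0.076 beside 0.0051 for all genes. By day 7 were negative and 3 positive, with a median of -0.022 beside -0.0055. For time the members gave 7 positive and 3 negative changes in WT and 5 of each in KO. With relative log expression factors or DESeq2 the averaged change of Htr3a turned positive (1.3e-04 and 0.0018). With the length trend removed the averaged change of Htr2c turned positive (0.055), as did the night changes of Htr2c (0.092) and Htr7 (0.0073) and the day change of Htr1b (0.0022), while the night change of Htr6 turned negative (-0.063). Averaged Htr2c also turned positive with agreeing labels only and without WT_night 1, 2 and 3. The comparisons share libraries, so these counts are not separate from each other.

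The 3 longest receptor genes moved with the long genes of each library. The median log2 level of 2701 genes of at least 100000 bp minus that of 8044 genes of at most 10000 bp, each taken relative to its mean, was -0.265 to -0.0448 in KO_night, -0.150 to 0.148 in KO_day, -0.0645 to 0.324 in WT_night and -0.0514 to 0.013 in WT_day. After the group means were taken out, its Pearson r with the level over 20 libraries was 0.848 for Htr4, 0.669 for Htr2c and 0.536 for Htr7, whose spans are 172374, 234765 and 98774 bp. For the 7 shorter genes it ran from -0.222 to 0.149, and for Htr1a it was 0.017. These r describe libraries that share depth and handling and carry no p. The part of this measure in the night difference of Htr4 was not tested beyond the fit with the length trend removed, given above.

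**Figure D5:**
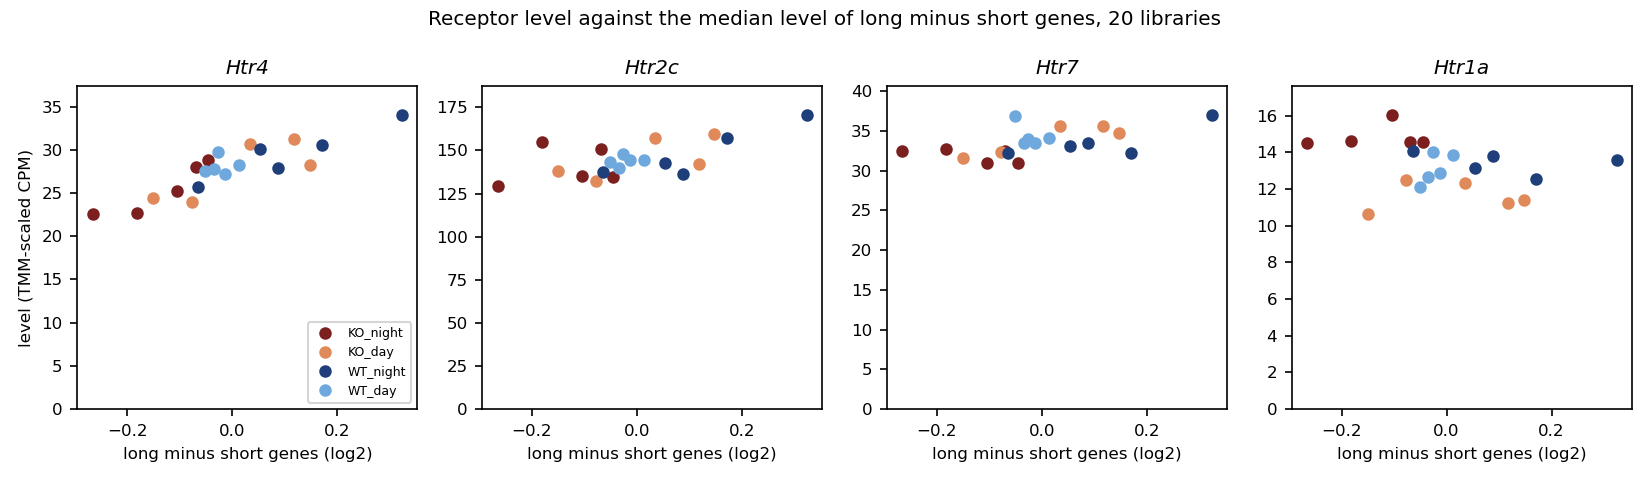
Level of Htr4, Htr2c, Htr7 and Htr1a (TMM-scaled CPM, axes from 0) against the median log2 level of long minus short genes in the same library, coloured by group, n = 20. The Htr4 points climb from 22.6 CPM at -0.265 to 34.0 CPM at 0.324, and the Htr1a points show no such climb.

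Between the receptor genes themselves, 21 of the 45 pairwise correlations of log2 CPM after removing group means were positive, with a median of -0.039. The highest were 0.641 for Htr1b with Htr2a, 0.589 for Htr2c with Htr7, 0.548 for Htr2c with Htr4 and 0.491 for Htr4 with Htr7, and the lowest was -0.484. Over 13497 protein-coding genes, those most like each receptor were found by the same measure. For Htr4 they were Ptprr (0.961), Usp40 (0.955) and Ctnnd2 (0.945). For Htr2c they were Ndst4 (0.945), Braf (0.890) and Csrnp3 (0.879), all 3 spanning more than 100 kb beside a median of 27.4 kb for the genes searched. Of those for Htr4, Usp40 spans 63.4 kb. Long genes also led for the shorter Htr1a (Ltbp1, 387 kb) and Htr3a (Stard13, 196 kb). For Htr1a they were Ltbp1 (0.720), Zcwpw1 (0.703) and Lag3 (0.698), for Htr1b Bag3 (0.841), Dixdc1 (0.817) and Luc7l (0.817), and for Htr2a Magt1 (0.858), Asb4 (0.851) and Prpf4b (0.815). The leading gene was Shmt1 for Htr5a (0.811), Nod1 for Htr6 (0.796), Stard13 for Htr3a (0.776), Epb41l3 for Htr7 (0.774) and Rbmx2 for Htr1d (0.769). Each was picked as the highest of 13497 genes over 20 libraries, which by itself favours a high r. Whether any of them exceeds what such a search gives was not tested.

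The 4 other serotonin receptor genes looked at, Htr1f, Htr2b, Htr3b and Htr5b, averaged 7.68 ± 1.45, 5.01 ± 0.900, 0.371 ± 0.108 and 1.19 ± 0.320 CPM. None passed in any comparison by edgeR. The lowest p for the averaged effect was that of Htr1f, an inhibitory receptor of the Htr1 group, with -0.29 ± 0.0981 (adjusted p = 0.106), and 1 of the 4 had an unadjusted p under 0.05. DESeq2 called 1 of them for that effect, 1 at night, 1 in KO_night against KO_day and 1 for the interaction, and left 1 or 2 without an adjusted p. Over all genes DESeq2 called 1052 of 17042, 3514 of 18489, 581 of 14874 and 1223 of 15596 in these comparisons.

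The transcripts of serotonin neurons themselves were low in the tissue. Tph2, the rate-limiting enzyme in neurons, averaged 0.428 ± 0.123 CPM, and the serotonin transporter Slc6a4 0.137 ± 0.0932. Tph1, Fev and Asmt had a mean count under 3. Ddc and Slc18a2, which dopamine neurons also use, and the breakdown enzyme Maoa were at 42.0 ± 2.83, 38.2 ± 3.40 and 49.6 ± 2.77. Of 10 genes of serotonin synthesis, transport and breakdown 6 were tested and none passed in any comparison with either tool. In each comparison at most 1 had an unadjusted p under 0.05, by day Slc18a2 (0.15, adjusted p = 0.444). Over all genes that share was 9.62% by day and up to 29.9% in the other comparisons. Of the 10 listed genes, the untested ones included, DESeq2 gave no adjusted p to 5 or 6.

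Downstream of the receptors, 24 genes of G proteins and effectors were tested. Averaged over both times Kcnj9, a subunit of the potassium channels that Htr1a opens, rose by 0.16 ± 0.0344 (adjusted p = 0.0293) and Plcb1, the phospholipase C of the Gq route, fell by 0.26 ± 0.0554 (adjusted p = 0.0288), while 22 did not pass. Over all genes 1.32% were called for the averaged effect and 11.9% at night. At night 2 of the 24 rose, 3 fell and 19 did not pass. Kcnj9 rose by 0.24 (adjusted p = 0.0112), with 46.6 ± 3.57 CPM in KO_night against 39.4 ± 2.24 in WT_night, and Gna11, a Gq family protein, rose by 0.15 (0.0290). Kcnj3, another subunit of the same channels, fell by 0.24 (0.0216), and so did Plcb4 by 0.18 (0.0332) and the adenylyl cyclase Adcy2 by 0.18 (0.0485). By edgeR none passed by day or for time, and the lowest p for KO_night against KO_day was that of Adcy1 (0.27, adjusted p = 0.0513). Unadjusted p was under 0.05 for 2 by day, 4 for time in WT and 7 for time in KO, of which DESeq2 called 1, 2 and 3. Over all genes the shares with an unadjusted p under 0.05 were 9.62%, 15.9% and 17.7%, and DESeq2 called 187 of 17042, 387 of 17766 and 581 of 14874.

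Of 16 genes for receptor partners, desensitisation and RNA editing, none passed for the averaged effect, where 5 had an unadjusted p under 0.05 and DESeq2 called 0. At night, where 11.9% of all genes were called, 2 fell and 14 did not pass. The 2 were Grk5, a receptor kinase, by 0.28 (adjusted p = 0.0272) and Rgs7, which speeds the shut-off of inhibitory G proteins, by 0.30 (0.0365). Adarb1, an editing enzyme of Htr2c RNA, had the lowest p for KO_night against KO_day, 150 ± 11.6 CPM in KO_night and 129 ± 4.42 in KO_day (0.22 ± 0.0471, adjusted p = 0.0513). Of 16 other monoamine receptors tested, the histamine receptor gene Hrh3 rose in KO averaged over both times (0.18, adjusted p = 0.0234) and at night (0.20, 0.0255). Also at night the adrenergic receptor genes Adra2c (0.29, 0.0258) and Adra1d (1.04, 0.0496) and the dopamine receptor gene Drd5 (0.32, 0.0401) rose, and 12 did not pass.

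These night calls were lost without WT_night 1, 2 and 3, as were most of those over all genes. Only WT_night 4 and 5 remain of that group in this fit, and no other 3 libraries were left out together. Whether the calls rest on those 3 or were lost through having fewer libraries cannot be told apart. Of all genes 2649 (11.9%) were called at night, and 11 without WT_night 1, 2 and 3. Over the 5 groups of related genes 66 were tested and 11 passed at night, of which 0 passed without WT_night 1, 2 and 3 and 0 with the trend over gene length removed. Of the 3 that passed averaged over both times, 1 (Hrh3) passed with the length trend removed and 0 without those 3 libraries. Beside them 6 of the 88 marker genes passed averaged over both times, Oxt, Avp, Otp, Gad1 and Mag, which rose, and Alas2, which fell. Of those 6, 4 passed with the length trend removed, and 1 (Oxt) without the 3 libraries. Kcnj9 at night was the 1 of the 11 that passed without any 1 library, with an adjusted p of up to 0.0494. At night 12 of the 88 passed as well, of which 0 passed without WT_night 1, 2 and 3 and 5 with the length trend removed. Oxt and Avp, Gad1 and Slc32a1 of inhibitory neurons, Aldh1l1 of astrocytes, Mag and Cnp of oligodendrocytes and Cspg4 of their precursors rose. Rora, Kcnj13, P2ry12 and Alas2, of the thalamus, choroid plexus, microglia and blood lists, fell. The rest of a list did not always go with them. Of the 6 microglia markers 5 had a positive night change and 1 a negative one, and of the 5 thalamus markers 3 and 2. For choroid plexus 1 was positive and 5 negative, and for blood 0 and 3. The 6 oligodendrocyte markers summed to 2084 to 2803 CPM in KO_night and 1930 to 2389 in WT_night. The part of these markers in the results was not tested.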

How the data were processed

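Hypothalamic total RNA of 20 mouse libraries (paired-end and strand-specific per the labels) was analysed from deposited raw counts, 1 per gene. Per the submitters' processing notes, the authors' tools were HISAT2 and featureCounts and the genome mm10. Versions, annotation release, strand setting and the counting of introns are not given in the sources used here. One count table of another layout (unit listed as other in the file record, values as deposited) holds the same raw counts. Of 53801 genes 53706 matched GENCODE M21 (GRCm38), and 37304 had a count. Totals were 32066289 to 48697647 counts, TMM factors 0.945 to 1.08, with a common biological coefficient of variation of 0.0918. The title's first letter gave the time, except in KO_day 5, where the time field did. WT_day 5 bears a title number already in use and was given the free number. Within groups the chi-square per degree of freedom between libraries was 5.58 to 53.7 over 40 pairs, more than counting error gives.

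The test was edgeR's quasi-likelihood F-test (version 4.0.16, filterByExpr with a minimum count of 10, 1 fit of 4 group means) in R 4.3.3, Benjamini-Hochberg adjusted at 0.05 over 22181 genes, after a test on simulated data. The 6 contrasts were the genotype effect (averaged, at night, by day), the time effect in each genotype and their interaction. Alternatives were DESeq2 1.42.0, relative log expression factors, no low-count filter, each library left out, a replicate block, the time field, agreeing labels only and removal of the trend with gene length. Correlations used log2 CPM (prior count 2). Sequences came from GENCODE M21, GRCm38 and RefSeq (GRCm38.p6). The receptor genes and all gene lists were chosen with earlier results of these data known. All 10 receptors are named in every comparison. Of each list, genes that passed (at most 4 by p, and Adcy2) or the lowest p are named, and D430036J16Rik, Gm32335, Snhg14, Gm24306, Neurod6, Tbr1 and further markers that passed were added after their values were seen (so was Adcy2).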

Additional observations from a re-analysis of the deposited data

Results flagged for a closer look

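The highest or lowest library of a group was set against the rest of its group by Dixon's test (critical value 0.71 for 5 libraries) in the 40 combinations of 10 receptor genes and 4 groups, where chance flags about 1 in 20. It picked out 3. Htr1a stood at 16 CPM in KO_night 1, above 14.5 to 14.6 in the other 4 KO_night libraries. Htr7 stood at 36.9 CPM in WT_night 3, above 32.2 to 33.5 in the other WT_night libraries, and at 36.8 CPM in WT_day 3, above 33.5 to 34.1 in the other WT_day libraries. KO_night 1 is 1 of the 6 libraries with contradicting time labels, WT_night 3 has the highest long-gene level (0.324), and WT_day 3 does not match its genotype label at Ndn and Magel2. Their part in these values was not tested.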

How the results depend on the processing

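Of 1674 values under alternative settings for 60 changes (10 genes in 6 comparisons), 1575 kept their direction and side of the threshold, 9 came to pass, 7 no longer passed and 83 turned sign (33 of the 60 changes). A further 6, of Htr1d, Htr3a and Htr6, are not counted, since DESeq2 gave them no adjusted p. The cause of the differences was not tested.

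The number of receptor genes that passed was 1 by DESeq2 in place of 0 for KO_night against WT_night and for the interaction. For KO_night against KO_day it was 0 in place of 1 with the time field, with agreeing labels only and with the length trend removed. With 1 library left out it ran from 0 to 1 in each of these 3 comparisons. The replicate numbers do not pair the libraries (30 same-numbered pairs, median r -0.014, 3 over 0.1). With a replicate block Htr1a in KO_night against KO_day was 0.35 (adjusted p = 0.0408), and the block changed no count of receptor genes that passed.

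Over all genes, KO_night against WT_night called 2649 (1148 of them higher), and 3514 with DESeq2, 1690 with the block, 646 (102 higher) with the length trend removed, 11 without WT_night 1, 2 and 3, 6 with agreeing labels, 4 with the time field and 122 to 4355 with 1 library left out. The averaged effect called 293, and 1052 with DESeq2, 187 with the length trend removed, 58 with agreeing labels, 30 with the time field, 19 without those 3 libraries and 47 to 1265 with 1 library left out. By day the count was 25, and 15 to 187 otherwise; for time in WT 61, and 0 to 387 otherwise; for time in KO 16 (12 higher), 18 (2 higher) with the length trend removed, 138 without WT_night 1, 2 and 3, and 0 to 581 otherwise; for the interaction 0, and up to 1555 with 1 library left out.

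Signs turned as follows. With the time field: averaged Htr3a 0.020; by day Htr1a 0.032, Htr1d -0.095 and Htr2c -0.0011; at night Htr1a -0.052 and Htr6 -0.035; time in WT Htr6 0.040; time in KO Htr1a -0.011, Htr1d 0.051, Htr3a -0.0023 and Htr4 0.12; interaction Htr1a -0.084, Htr1d 0.0028 and Htr4 0.075. With agreeing labels only, Htr2c was 0.018 and Htr6 0.011 averaged, Htr3a -0.071 at night, Htr6 0.0027 for time in WT and Htr4 0.028 for time in KO. With the length trend removed, Htr2c was 0.055 averaged, 0.092 at night, -0.057 for time in WT, 0.018 for time in KO and 0.075 for the interaction. Htr1b was then 0.0022 by day and -0.0014 for time in KO, Htr6 -0.063 and Htr7 0.0073 at night, Htr2a -0.045 and Htr4 -0.015 for time in WT, and Htr7 0.030 for the interaction. Without WT_night 1, 2 and 3, a setting added after seeing the data, Htr2c was 0.014 averaged, 0.0085 at night and -0.038 for time in WT, Htr5a 0.021 and Htr6 -0.014 at night, Htr4 -0.0086 for time in WT and Htr2a -0.047 for the interaction. Averaged Htr3a was 1.3e-04 with relative log expression factors, 0.0018 with DESeq2 and 0.0049 with no low-count filter, which also gave Htr5a 0.0027 at night.

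With 1 library left out, signs turned within these ranges. Averaged, Htr1a was -0.027 to 0.0058 and Htr3a -0.064 to 0.052. By day Htr1b was -0.070 to 0.019, Htr1d -0.013 to 0.11, Htr2c -0.013 to 0.056, Htr4 -0.060 to 0.036 and Htr7 -0.029 to 0.021. At night Htr5a was -0.049 to 0.027 and Htr6 -0.13 to 0.10. For time in WT, Htr2a was -0.015 to 0.036, Htr2c -0.0038 to 0.087, Htr6 -0.14 to 0.024 and Htr7 -0.068 to 0.0036. Htr1b was -0.0041 to 0.13 for time in KO and Htr2a -0.017 to 0.055 for the interaction.

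Per kilobase of merged exons the CPM moved for all but the single-exon Htr1a, to 15.5 for Htr2c, 9.85 for Htr7, 5.65 for Htr4, 3.97 for Htr2a, 3.27 for Htr1b, 1.67 for Htr5a, 0.859 for Htr3a, 0.594 for Htr1d and 0.555 for Htr6. Depth limits Htr1d, Htr3a and Htr6 most, at 38 to 99 counts per library. Reads without molecular identifiers are not independent molecules, so counting error is a lower limit.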
